A study of Mus musculus with 54 samples.

Results

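Myc and its MAX network partners were followed through 15 conditions of mouse peritoneal macrophages. The members were chosen by symbol, and all 10 of them (Myc, Mycl, Max, Mxd1, Mxd4, Mxi1, Mnt, Mlx, Mlxip and Mga) were found among the 39179 genes of the count files. The macrophages came from the peritoneum of C57BL/6 mice aged 8 to 20 weeks, 4 days after an injection of thioglycolate, and no group carried a genetic modification. In the polarization experiment, adherent cells of 3 mice were kept for 24 h without stimulus (M0), with IFNγ at 50 ng/ml plus LPS at 100 ng/ml (M1-like) or with 10 ng/ml IL-4 (M2-like), and 2 technical replicates per mouse and condition were sequenced. In the reprogramming experiment, M0, M1-like and M2-like macrophages were left untransfected or were mock-treated, which means transfection reagent without siRNA. The study's methods place sequencing of macrophages without transfection at 24 h of polarization and do not name the untransfected samples of this experiment separately. M2-like macrophages were also transfected after 24 h of IL-4 with a negative siRNA pool, with pools against E2f1, Myc, Pparg or Stat6, or with these 4 pools combined. They were then cultured without IL-4, and RNA was taken 48 h after transfection. For the mock samples the methods give no separate culture time or medium. Each of these 12 conditions had 3 replicates, and the labels do not say whether they came from separate mice or cultures. The study's methods name biological replicates in their passage on RNA extraction for PCR. If the sequenced replicates shared a culture, the p-values of this experiment measure only technical spread. The adherent exudate cells were not sorted, and in such bulk libraries fewer cells of a type and less RNA per cell cannot be told apart.

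MYC is a transcription factor that binds DNA only as a dimer with MAX, mostly at the E-box CACGTG, and drives genes for ribosome production, nucleotide synthesis and growth. The MXD proteins (Mxd1, Mxd4 and Mxi1), MNT and MGA also need MAX, bind the same sites and recruit corepressors, so they act as antagonists of MYC, while MYCL is a relative of MYC. MLX is the partner of a parallel branch, in which MLXIP (also named MondoA) senses glucose-derived metabolites and activates Txnip and Arrdc4. In macrophages, Myc is known as a gene induced by IL-4.

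The libraries held 19714994 to 29880494 counted reads in the polarization experiment and 13421854 to 19704195 in the reprogramming experiment. Technical replicates agreed almost within sampling noise (chi-square divided by the number of genes 1.07 to 1.10, and 5.86 to 96.6 for different mice), so they were summed and counted as 1 sample. All 6 listed macrophage marker genes were expressed in both experiments, with summed levels of 10130 to 17330 and of 6162 to 18250 CPM (counts scaled to library size with edgeR's TMM factors). Of the 4 T cell and the 4 neutrophil markers, 3 each stayed under 1 CPM in every sample. The values below are CPM per sample, and the word called stands for passing edgeR's quasi-likelihood test at 0.05 after Benjamini-Hochberg adjustment over all tested genes. The 10 members passed the filter on low counts in both experiments, Mycl in the polarization experiment only through its M1-like samples.

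The promoter windows of the members were searched for the E-box, since those are the sites that MYC, the antagonists and MLX share. RefSeq windows of GRCm38.p6 (250 bases before to 50 bases after the start of transcription) were at hand for 9 of the members. The E-box CACGTG, which reads the same on both strands, occurred in the windows of 4 of these 9 members, Max, Mxd4, Mnt and Mlx. The 9 members have 11 windows in all. Of the 32851 windows of all genes, 7.15% held the E-box, which is a share of windows and not of genes. Upstream of Mxd4, the member that responded most to the Myc siRNA pool apart from Myc itself, the E-box lies at bases -219 to -214. It lies at -40 to -35 in Mlx, at -123 to -118 in Mnt, and across the start of Max. The 4 stretches are printed 5′ to 3′ with the E-box in capitals, for Mxd4 on the minus strand of chr5:34187711-34187960, for Mlx on the plus strand of chr11:101087200-101087289, for Mnt on the plus strand of chr11:74830764-74830853 and for Max on the minus strand of chr12:76962246-76962275.
Mxd4: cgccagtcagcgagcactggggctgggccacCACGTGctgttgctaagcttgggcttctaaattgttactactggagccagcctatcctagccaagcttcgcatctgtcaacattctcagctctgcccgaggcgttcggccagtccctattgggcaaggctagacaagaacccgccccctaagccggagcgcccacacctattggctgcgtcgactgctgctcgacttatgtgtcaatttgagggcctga
Mlx: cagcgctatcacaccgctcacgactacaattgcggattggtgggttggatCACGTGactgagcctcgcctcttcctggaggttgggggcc
Mnt: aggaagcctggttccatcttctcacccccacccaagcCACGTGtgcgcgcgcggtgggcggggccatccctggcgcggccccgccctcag
Max: ctaccccggcgcggtgagcccggtCACGTG
A match is a description of the letters, and binding was not measured. The STAT6-type motif TTCNNNNGAA (6.95% of all windows, both strands) occurred in 1 window of Mxi1 and in that of Mga. Neither match overlapped an E-box.

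Myc (chromosome 15, 61985391 to 61990374 on GRCm38, plus strand) had no overlap between M1-like and M2-like samples in either experiment. After 24 h it had 9.53, 8.93 and 9.03 CPM in the M0 samples of the 3 mice, 0.513, 0.664 and 0.728 CPM in the M1-like samples and 18.7, 18.6 and 19.98 CPM in the M2-like samples. The 3 states did not overlap, with M1-like samples lowest and M2-like samples highest. In M1-like macrophages Myc was 29.6-fold below its M2-like level (log2 fold change -4.89, SE 0.12, adjusted p = 3.87e-12, edgeR). Compared to M0, it was lower in M1-like macrophages (-3.83, SE 0.12, adjusted p = 3.49e-11, edgeR) and higher in M2-like macrophages (1.06, SE 0.08, adjusted p = 4.86e-06, edgeR).

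Without transfection, the M1-like samples of the reprogramming experiment had 3.24, 1.47 and 2.97 CPM of Myc and the untransfected M2-like samples 20.1, 23.2 and 22.6 CPM. With mock treatment, the M1-like samples had 3.37, 2.80 and 4.35 CPM and the M2-like samples 21, 23.6 and 20.4 CPM. M1-like samples again lay below all others, by 3.09 on the log2 scale without transfection (SE 0.19, adjusted p = 1.86e-15, edgeR) and by 2.63 with mock (SE 0.18, adjusted p = 2.20e-14, edgeR). M2-like macrophages, in contrast, no longer stood clearly above M0. The untransfected M0 samples had 14.9, 17.6 and 16.9 CPM of Myc, below the M2-like samples (log2 fold change 0.41, SE 0.15, adjusted p = 0.0489, edgeR), and this call was lost in all 6 fits without 1 of these libraries (0.35 to 0.47). The mock M0 samples had 24.95, 23.8 and 16.6 CPM, which overlapped the mock M2-like samples (-0.01, approximate 95% interval -0.30 to 0.28, adjusted p = 0.985, edgeR).

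Pvt1, a long non-coding RNA gene next to Myc, lay 3.93 lower on the log2 scale in the M1-like samples after 24 h, compared to the M2-like samples. It had 4 to 9 reads in the M1-like and 116 to 147 in the M2-like samples, so this value is a description and no test is given. Its levels were low, with 0.177 ± 0.0834 CPM after LPS and IFNγ and 2.63 ± 0.0866 CPM after IL-4 (SD, n = 3). Between mock samples of the reprogramming experiment its log2 fold change was -0.37 (SE 0.35, adjusted p = 0.382, edgeR).

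**Figure D1:**
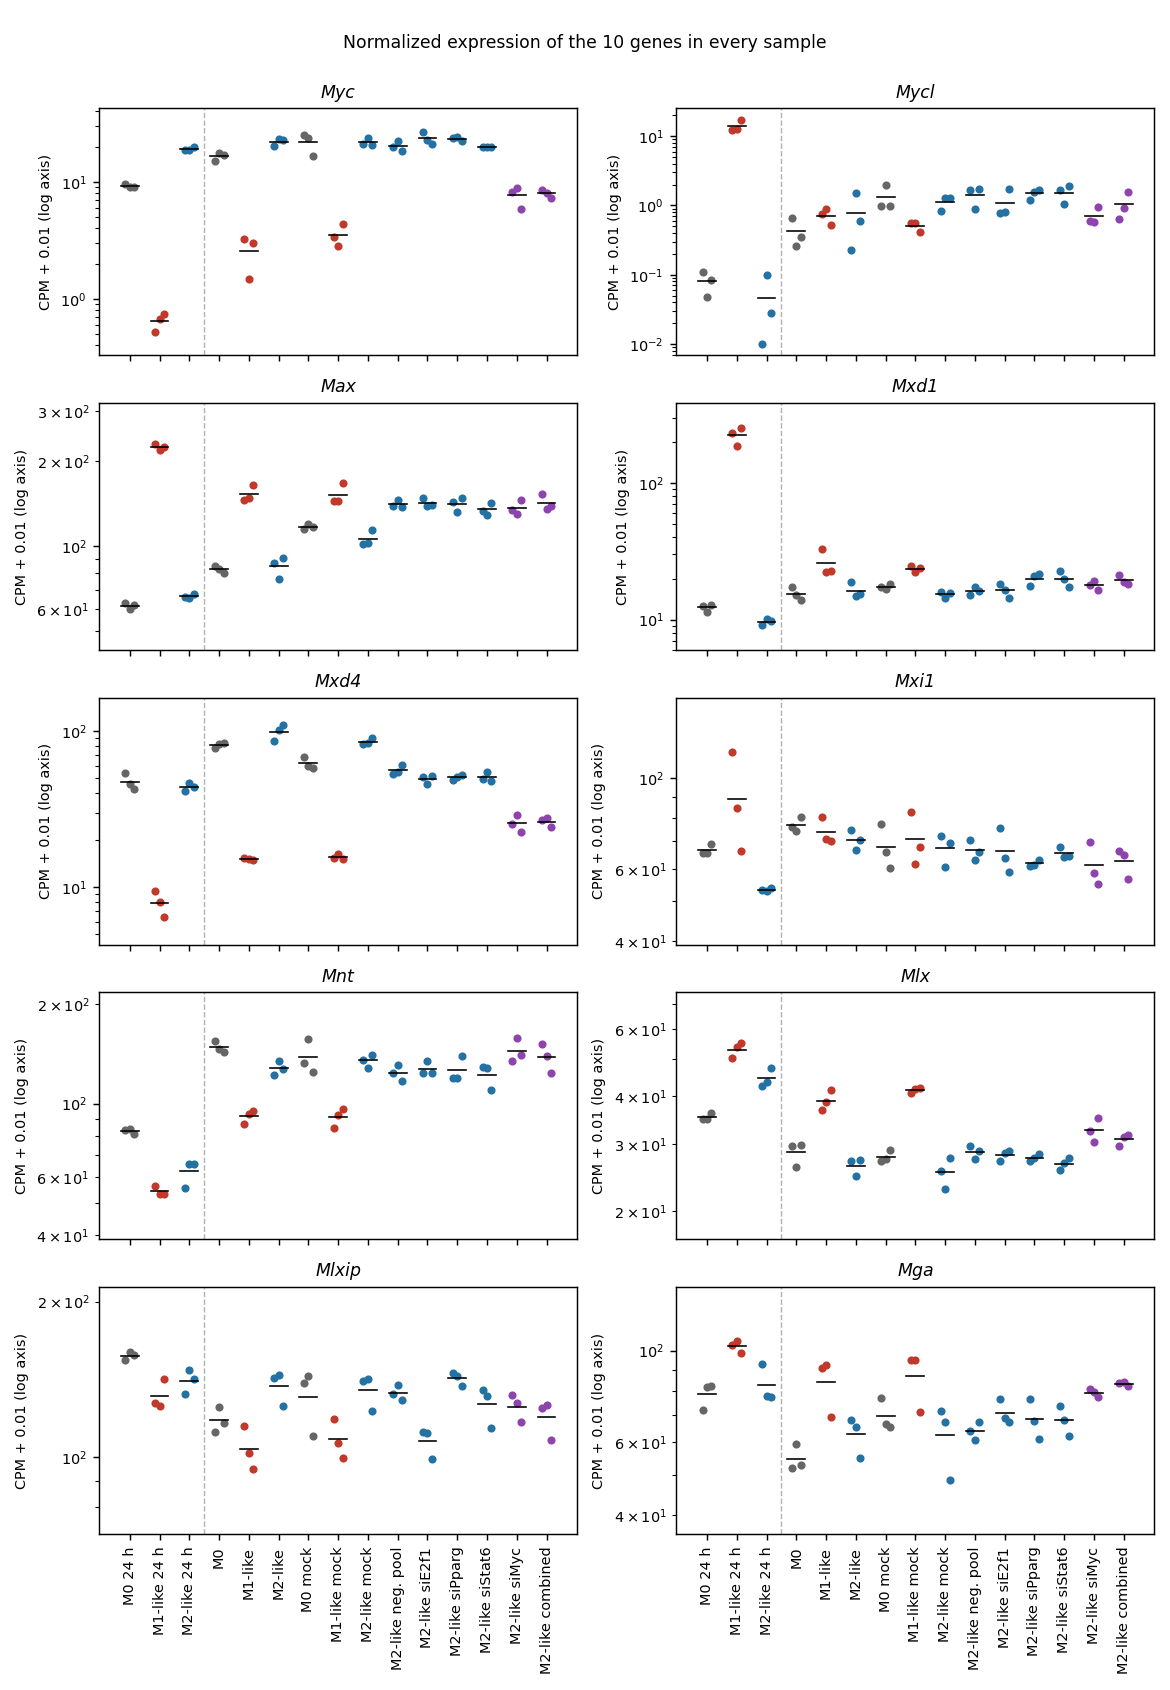
Level of each member in every sample, as CPM plus 0.01 on a log axis, with the 3 samples of a condition as points (grey M0, red M1-like, blue M2-like, purple the Myc and combined knockdowns) and their mean as a line. The polarization experiment is left of the dashed line, where the M1-like means of Mycl and Mxd1 are 14.2 and 224 CPM, and the reprogramming experiment is right of it.

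Mycl, the second MYC relative among the members, behaved in the opposite way after 24 h. It had 12.3, 12.9 and 17.4 CPM in the M1-like samples, while 11 reads in all were counted over the M0 samples and 6 reads over the M2-like samples. No M0 or M2-like sample exceeded 0.1 CPM. The fitted log2 fold change between the stimulated states was 8.43 and moved between 7.98 and 10.12 without 1 sample. Since the filter admitted Mycl only through the samples in which it is high, this value is a description and no test of it is given. In the reprogramming experiment Mycl stayed between 0.215 and 1.93 CPM in every sample and was no longer high in M1-like macrophages. The mock M1-like samples had 0.544, 0.540 and 0.406 CPM, below the 0.832, 1.26 and 1.26 CPM of the mock M2-like samples (log2 fold change -1.14, SE 0.48, adjusted p = 0.0391, edgeR), a call that was lost in 5 of 6 fits without 1 library (-1.32 to -1.03). Mycn, the remaining MYC relative, did not pass the filter in the polarization experiment and stayed at or under 1.03 CPM in the reprogramming experiment.

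Max, the common dimer partner, was higher in M1-like macrophages. After 24 h it had 63.1, 59.7 and 62.0 CPM in M0, 231, 219 and 224 CPM in M1-like and 65.9, 65.7 and 67.4 CPM in M2-like samples. All M1-like samples lay above all others, by 1.76 on the log2 scale compared to M2-like macrophages (SE 0.05, adjusted p = 2.95e-11, edgeR). The difference was 0.85 in untransfected (SE 0.07, adjusted p = 5.83e-12, edgeR) and 0.52 in mock-treated macrophages (SE 0.07, adjusted p = 2.05e-07, edgeR). The difference between mock and untransfected macrophages in this contrast was -0.33 (SE 0.10) and did not pass the test (adjusted p = 0.153, edgeR).

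Max also differed between untransfected and mock samples, where reagent, culture time and, in M2-like macrophages, a possible removal of IL-4 cannot be told apart. It differed between mock and the negative pool as well. In M2-like macrophages it had 87.3, 76.2 and 90.6 CPM in untransfected M2-like samples, 102, 103 and 114 CPM with mock, and 139, 145 and 138 CPM with the negative siRNA pool. These groups did not overlap. Mock (1.77% of all genes called) was higher than no transfection (log2 fold change 0.32, SE 0.07, adjusted p = 0.00734, edgeR), a call lost in 2 of 6 fits without 1 library (without untransfected replicate 2 or mock replicate 3, with 0.25 as the lowest value). The negative pool (11.7% of all genes called against mock) was higher than mock (0.41, SE 0.07, adjusted p = 0.000148, edgeR). With the targeted pools, Max had between 129 and 153 CPM in every sample, and its log2 fold changes against the negative pool lay between -0.06 and 0.02. In M0 macrophages, mock treatment (20.4% of all genes called) was likewise above no transfection (0.50, SE 0.07, adjusted p = 3.26e-06, edgeR).

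Among the antagonists, Mxd1 and Mxd4 moved in opposite directions with polarization. Mxd1 (chromosome 6, 86647042 to 86669161, minus strand) had 12.7, 11.4 and 12.8 CPM in M0, 234, 187 and 252 CPM in M1-like and 9.19, 10.04 and 9.77 CPM in M2-like samples after 24 h. The M1-like samples stood far above the others, 23.1-fold above M2-like macrophages (log2 fold change 4.53, SE 0.11, adjusted p = 5.17e-12, edgeR). The M2-like samples lay just below M0 (-0.35, SE 0.11, adjusted p = 0.0308, edgeR), a call lost in 5 of 6 fits without 1 library (-0.40 to -0.31).

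Mxd1 differed less between the states in the reprogramming experiment. Untransfected M1-like samples had 33.1, 22.4 and 22.6 CPM and M2-like samples 18.7, 14.8 and 15.4 CPM. The groups were separate, at a log2 fold change of 0.68 (SE 0.13, adjusted p = 2.51e-05, edgeR), and of 0.62 between the mock samples (SE 0.13, adjusted p = 9.68e-05, edgeR). By the study's methods, the untransfected macrophages of both experiments may have had the same 24 h of polarization. The experiments differ in read type and sequencing site and were normalized separately, so the difference between them was not tested.

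Mxd4 (chromosome 5, 34173883 to 34187720, minus strand) was the antagonist that was low in M1-like macrophages, as Myc was. After 24 h it had 53.6, 45.6 and 42.4 CPM in M0, 9.43, 7.97 and 6.41 CPM in M1-like and 41.6, 46.4 and 44.0 CPM in M2-like samples. M0 and M2-like samples overlapped, and M1-like samples were 5.57-fold below M2-like samples (log2 fold change -2.48, SE 0.13, adjusted p = 4.40e-09, edgeR). The log2 fold change in the reprogramming experiment was -2.71 without transfection (SE 0.09, adjusted p = 5.22e-22, edgeR) and -2.45 with mock (SE 0.09, adjusted p = 6.23e-21, edgeR). The exons of Mxd4 overlap a predicted gene on the opposite strand over 6.06% of their length, and the strand setting of the counting is not given in the sources used here.

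Mnt, which represses MYC targets in resting cells, had the highest mean level per length among the antagonists in every condition except M1-like macrophages after 24 h, where Mxd1 led. It had 83.1, 83.6 and 81.2 CPM in M0, 56.4, 53.4 and 53.5 CPM in M1-like and 55.6, 65.9 and 65.8 CPM in M2-like samples after 24 h. Both stimulated states lay below M0, by 0.60 (SE 0.07, adjusted p = 6.50e-06, edgeR) and 0.40 on the log2 scale (SE 0.07, adjusted p = 0.00116, edgeR). M1-like and M2-like samples overlapped, and their difference (-0.20, SE 0.07, adjusted p = 0.0207, edgeR) was lost with RLE size factors, with DESeq2, with only these groups fitted, and in 4 of 6 fits without 1 library (-0.28 to -0.16). In the reprogramming experiment the mock M1-like samples lay below the mock M2-like samples in Mnt, by 0.57 (SE 0.09, adjusted p = 1.21e-06, edgeR).

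After 24 h Mxi1 was higher with LPS and IFNγ compared to IL-4 (log2 fold change 0.74, SE 0.15, adjusted p = 0.000713, edgeR), with 116, 84.6 and 66.3 CPM in the 3 M1-like samples compared to 53.0 to 53.8 CPM in the M2-like samples. The mice differed widely in the M1-like state. Against M0 the log2 fold change was 0.41 (SE 0.15, adjusted p = 0.0232, edgeR), and the call was lost without the M1-like sample of mouse 1 (0.18) or the M0 sample of mouse 2 (0.40). Between the mock samples Mxi1 had a log2 fold change of 0.07 (approximate 95% interval -0.13 to 0.27, adjusted p = 0.567, edgeR).

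Mga, a large MAX partner of the repressive complex PRC1.6, was higher in M1-like macrophages, compared to M2-like macrophages, in both experiments. After 24 h the M1-like samples had 103, 105 and 98.5 CPM and the M2-like samples 92.9, 77.7 and 77.0 CPM, without overlap (log2 fold change 0.31, SE 0.08, adjusted p = 0.00398, edgeR). With mock the log2 fold change was 0.48 (SE 0.12, adjusted p = 0.00094, edgeR), although the lowest M1-like sample (70.9 CPM) was below the highest M2-like sample (71.3 CPM).

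In the parallel branch, Mlx was higher and Mlxip lower in M1-like macrophages. Mlx had 50.3, 53.7 and 55.1 CPM in M1-like and 42.6, 43.6 and 47.6 CPM in M2-like samples after 24 h (log2 fold change 0.25, SE 0.06, adjusted p = 0.0031, edgeR). With mock it had 40.8, 41.8 and 42.1 compared to 25.4, 22.9 and 27.5 CPM (0.72, SE 0.07, adjusted p = 2.06e-10, edgeR). M1-like and M2-like samples did not overlap in either experiment. Of the exons of Mlx, 19.3% of the length overlap Psmc3ip on the opposite strand, and whether the counting used strand is not given in the sources used here. Mlxip was -0.10 on the log2 scale after 24 h (SE 0.07, adjusted p = 0.196, edgeR) and lower in the mock M1-like samples (-0.32, SE 0.09, adjusted p = 0.00361, edgeR).

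The targets of this branch did not move together. Arrdc4, an arrestin-like gene, had 140, 134 and 129 CPM in M1-like and 36.8, 42.5 and 39.8 CPM in M2-like samples after 24 h, a log2 fold change of 1.76 (SE 0.07, adjusted p = 1.93e-10, edgeR). It was also higher in mock M1-like samples (1.08, SE 0.09, adjusted p = 9.78e-12, edgeR). Txnip, which limits glucose uptake, was -0.06 after 24 h (approximate 95% interval -0.17 to 0.06, adjusted p = 0.38, edgeR) and 0.31 in the mock samples (-0.09 to 0.70, adjusted p = 0.187, edgeR).

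**Figure D2:**
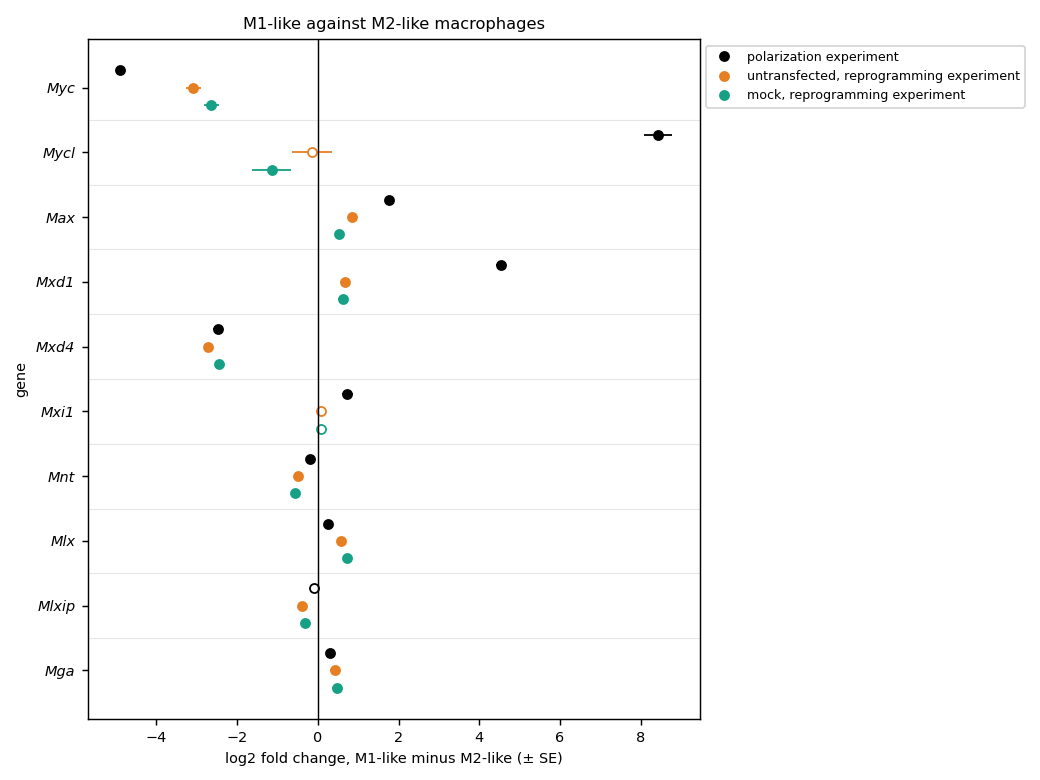
Log2 fold changes of M1-like against M2-like macrophages with their SE, for the polarization experiment (black) and for untransfected (orange) and mock-treated macrophages (green) of the reprogramming experiment. Filled points passed the test. Myc lies at -4.89, -3.09 and -2.63 and Mxd4 at -2.48, -2.71 and -2.45, while Mycl lies at 8.43 in the polarization experiment, a value given as a description since its M0 and M2-like samples were near 0.

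Counted over the network, 9 of the 10 members were called between M1-like and M2-like macrophages after 24 h, 6 higher and 3 lower in M1-like, where 72.6% of the 16110 tested genes were called. The median log2 fold change of the members was 0.28, compared to -0.06 for all tested genes. Against M0, all 10 members were called in M1-like macrophages (72.9% of all genes) and 4 in M2-like macrophages (27.9% of all genes). In the reprogramming experiment, 8 members were called between untransfected M1-like and M2-like macrophages (61.5% of 14172 tested genes), and 9 between the mock samples (60.7%). M2-like macrophages differed from M0 in 2 members without transfection (19.9% of all genes) and in 1 with mock (3.83% of all genes), Mxd4 (log2 fold change 0.47, SE 0.08, adjusted p = 0.000479, edgeR). With 10 members no test of these shares was made, and Mycl is counted among those after 24 h although it passed the filter only through M1-like samples. No member differed between mock and untransfected M1-like macrophages at an unadjusted p under 0.05, and 0 genes at all were called there by edgeR or DESeq2 (0.0%), with 438 genes at an unadjusted p under 0.05. For 0 of the members the contrast between the polarized states differed by edgeR between mock-treated and untransfected cells (1.13% of all genes called), with Max and Mxd4 among 1063 genes at an unadjusted p under 0.05.

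Per kb of exon, with all annotated exons of a gene counted, the order of the members changed with polarization. This order depends on the length used. For Max all exons span 3598 bases and the longest transcript 1942, compared to 1999 and 1965 for Mlx. Per longest transcript, Max would therefore stand higher relative to Mlx than given here. In M0 macrophages after 24 h, Mlxip (18.9 ± 0.342 CPM per kb), Mnt (17.9 ± 0.280), Mlx (17.7 ± 0.386) and Max (17.1 ± 0.486) were at similar levels, and Myc (3.37 ± 0.117) was above only Mxd1 (1.74 ± 0.110) and Mycl (SD, n = 3). In M1-like macrophages, Max (62.4 ± 1.69 CPM per kb) and Mxd1 (31.7 ± 4.70) led, Mycl reached 3.52 ± 0.694, and Mxd4 (0.936 ± 0.178) and Myc (0.234 ± 0.0406) came last. In M2-like macrophages, Mlx (22.3 ± 1.32 CPM per kb) and Max (18.4 ± 0.263) led, and Myc reached 7.02 ± 0.289.

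The summed level per kb of Mxd1, Mxd4, Mxi1 and Mnt was set against that of Myc in each sample. After 24 h this ratio was 10.2 to 10.5 in M0, 210.0 to 335 in M1-like and 3.79 to 4.22 in M2-like samples. The states did not overlap, and the geometric mean of M1-like samples was 62.4-fold that of M2-like samples. With mock treatment it was 5.49 to 7.41 in M0, 22.4 to 33.1 in M1-like and 5.61 to 7.11 in M2-like macrophages. Mock M0 and M2-like samples overlapped (exact permutation test, p = 0.9), and M1-like samples were 4.30-fold above M2-like samples. The summed antagonists alone were lower in mock M1-like (34.1 to 35.9 CPM per kb) than in mock M2-like samples (48.6 to 53.5), so the higher ratio there reflects the lower Myc. After 24 h they were higher in M1-like (51.3 to 63.3) than in M2-like samples (26.0 to 28.9). With 3 against 3 samples the exact permutation test (two-sided) cannot go below p = 0.1, and each of the other 9 of the 10 ratio comparisons had this p, or 0.111 after Benjamini-Hochberg adjustment over the 10.

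**Figure D3:**
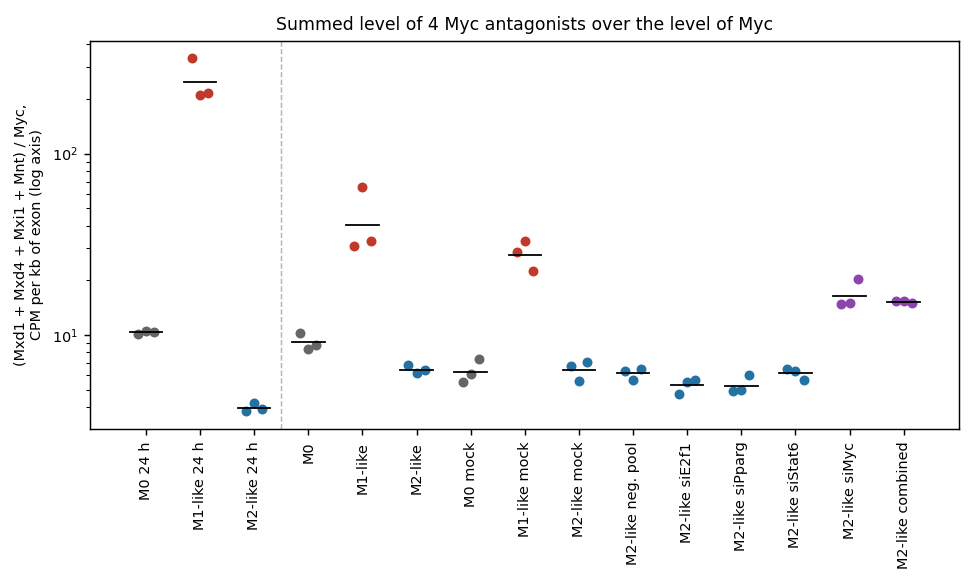
Summed level of Mxd1, Mxd4, Mxi1 and Mnt over the level of Myc, each in CPM per kb of exon, on a log axis, with the 3 samples of each condition as points and the geometric mean as a line. M1-like samples after 24 h reach 210.0 to 335, and the Myc and combined knockdowns, at 14.8 to 20.2 and 15.1 to 15.4, lie between the other M2-like conditions and the mock M1-like samples.

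The knockdowns address the response of the partners when Myc is lowered in M2-like macrophages. Myc itself had 8.24, 8.90 and 5.83 CPM with the Myc pool and 8.58, 8.04 and 7.30 CPM with the combined pool, compared to 19.6, 22.3 and 18.5 CPM with the negative pool. Both knockdowns lay below all control samples, at 38.0% ± 8.01 and 39.6% ± 3.20 of the mean of the negative pool (SD, n = 3). The log2 fold changes were -1.38 (SE 0.16, adjusted p = 6.83e-08, edgeR) and -1.33 (SE 0.16, adjusted p = 1.62e-07, edgeR), and against mock -1.49 and -1.44. With the E2f1, Pparg and Stat6 pools, Myc had 19.7 to 26.8 CPM and was not called against mock or the negative pool. All samples of the knockdowns stayed above the mock M1-like samples in Myc.

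The order of the 12 conditions by their mean level of Myc began with M1-like macrophages. Untransfected and mock M1-like macrophages (2.56 and 3.51 CPM) overlapped each other, followed by the Myc and combined knockdowns (7.66 and 7.97 CPM), which also overlapped, and by untransfected M0 (16.5 CPM). The remaining 7 conditions, with means of 19.8 CPM (Stat6 knockdown) to 23.5 CPM (E2f1 knockdown), each overlapped their neighbour in this order. The samples of untransfected M0 also overlapped those of mock M0, whose lowest sample had 16.6 CPM.

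The supplier of the Myc pool (Dharmacon) differs from that of the E2f1, Pparg and Stat6 pools (siTools), and the supplier of the negative pool is not given in the sources used here. The Myc pool was part of both conditions in which Myc fell, so effects of lower Myc and of this pool's other properties cannot be told apart. Against the negative pool, 29.6% of the 14172 tested genes were called with the Myc pool and 26.5% with the combined pool, compared to 0.91% with the E2f1, 5.74% with the Pparg and 1.51% with the Stat6 pool.

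Apart from Myc, Mxd4 was the member that changed most with the Myc and combined pools. It had 25.5, 29.0 and 22.7 CPM in the Myc knockdown and 26.8, 27.6 and 24.4 CPM in the combined knockdown. It had 52.7, 55.0 and 60.2 CPM with the negative pool and 82.6, 84.0 and 90.6 CPM with mock. These levels did not overlap, except for those of both knockdowns with each other.

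Against the negative pool, Mxd4 fell by 1.12 on the log2 scale with the Myc pool (SE 0.09, adjusted p = 3.34e-11, edgeR) and by 1.09 with the combined pool (SE 0.09, adjusted p = 4.47e-11, edgeR), to 46.0% ± 5.71 and 46.9% ± 2.96 of its mean level there (SD, n = 3). Against mock it fell by 1.73 (SE 0.09, adjusted p = 2.88e-16, edgeR) and 1.71 (SE 0.09, adjusted p = 5.96e-16, edgeR). The negative pool itself lay below mock by 0.61 (SE 0.08, adjusted p = 2.64e-06, edgeR). With the E2f1, Pparg and Stat6 pools, Mxd4 had between 45.8 and 55.0 CPM, with log2 fold changes against the negative pool of -0.19, -0.15 and -0.14 that were not called. The direct contrast of the Myc knockdown with the mean of these 3 knockdowns gave -0.96 (SE 0.07, adjusted p = 2.24e-11, edgeR). In the M1-like mock samples Mxd4 was lower still, at 15.4, 16.3 and 15.2 CPM.

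**Figure D4:**
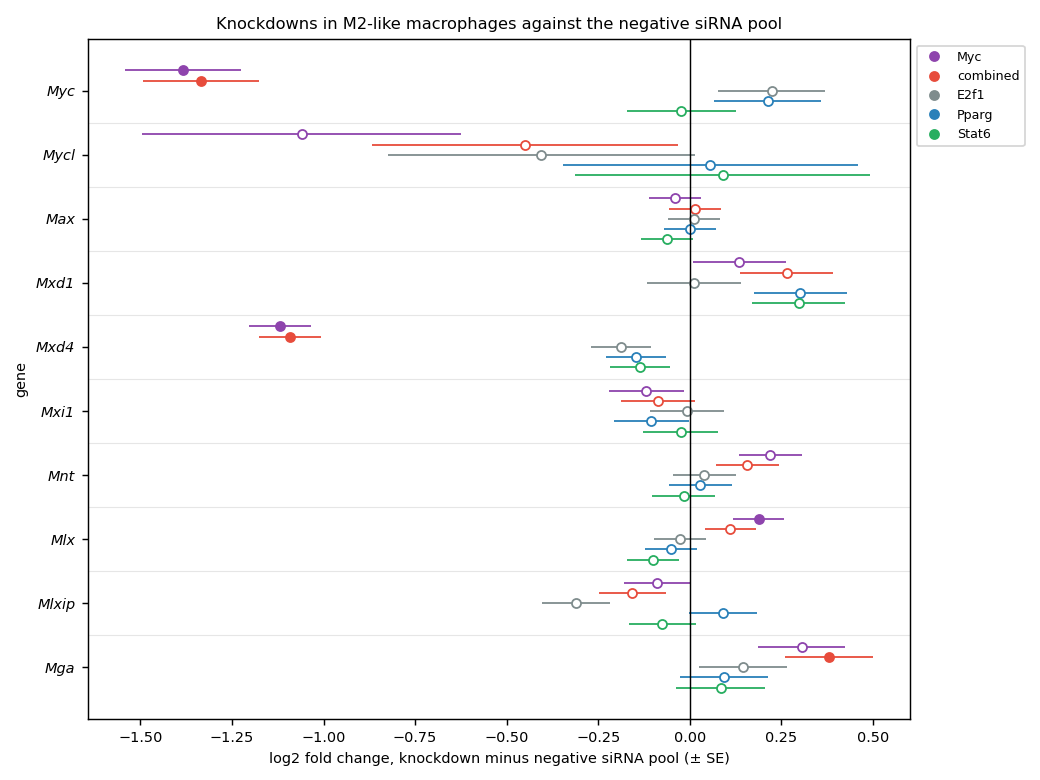
Log2 fold changes of the members in the 5 knockdowns against the negative siRNA pool, with their SE and filled points where the test was passed. Myc and Mxd4 are set apart with the Myc pool (-1.38 and -1.12) and the combined pool (-1.33 and -1.09), and none of the members passed the test with the E2f1, Pparg or Stat6 pool.

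Changes of the other members with the Myc pool were smaller or, for Mycl at its low level, imprecise. Against the negative pool, 3 members were called (29.6% of all genes), Myc and Mxd4 as lower and Mlx as higher. Mlx had 32.4, 30.4 and 35.1 CPM compared to 29.6, 27.4 and 28.8 CPM (log2 fold change 0.19, SE 0.07, adjusted p = 0.0402, edgeR), a call lost without a filter on low counts, with only these groups fitted, with DESeq2, and in 4 of 6 fits without 1 library (0.14 to 0.24). Against the mean of the E2f1, Pparg and Stat6 knockdowns, Mlx was higher as well (0.25, SE 0.06, adjusted p = 0.00098, edgeR), in a contrast in which 5 members were called (32.6% of all genes). The others were Myc (-1.52), Mxd4, Mnt (0.20, adjusted p = 0.0238, edgeR) and Mycl (-0.97, adjusted p = 0.0431, edgeR). The call of Mnt was lost without the second or the third replicate of the Myc knockdown (0.13 as the lowest value) and that of Mycl in 7 of 12 fits without 1 library (-1.22 to -0.82).

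Mga and Mnt lay at the threshold. Mga had 80.6, 79.2 and 77.2 CPM in the Myc knockdown and 63.8, 60.8 and 67.3 CPM with the negative pool, without overlap (log2 fold change 0.31, SE 0.12, adjusted p = 0.0528, edgeR). In the combined knockdown, with 83.4, 84.1 and 82.2 CPM, it was called (0.38, SE 0.12, adjusted p = 0.0181, edgeR), except without the second replicate of the negative pool (0.35). Mnt had 134, 158 and 141 CPM in the Myc knockdown and 124, 131 and 117 CPM with the negative pool (0.22, SE 0.09, adjusted p = 0.0516, edgeR). With DESeq2, Mga and Mnt were called in the Myc knockdown (0.31 and 0.22).

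For Mxd1, Mxi1, Mlxip and Mycl no difference passed the test in the Myc or combined knockdown against the negative pool. Mxd1 had 17.9, 19.1 and 16.4 CPM in the Myc knockdown and 15.04, 17.4 and 16.2 CPM with the negative pool (log2 fold change 0.14, approximate 95% interval -0.11 to 0.38, adjusted p = 0.452, edgeR). These samples overlapped and stayed below the lowest mock M1-like sample (22.3 CPM). The interval of Max was -0.18 to 0.10 and that of Mxi1 -0.32 to 0.08. Mycl, with 0.559 to 0.931 CPM, had a wide interval of -1.91 to -0.20 (adjusted p = 0.0655, edgeR), and it was called without a filter on low counts (-1.05), with only these groups fitted (-1.06) and without the second replicate of the negative pool (-1.30).

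With the combined pool, 3 members were called against the negative pool (26.5% of all genes), Myc, Mxd4 and Mga. Compared to mock, 5 members were called with the Myc pool (38.7% of all genes) and 6 with the combined pool (37.1%), and these lists include Max, which was equally high with the negative pool. Mxd1 was called with the combined and the Pparg pool against mock (17.2% of all genes with the Pparg pool) (0.35 and 0.38), a call lost in 5 of 6 fits without 1 library for each. Mlxip was lower with the E2f1 pool against mock (11.6% of all genes called; -0.33, SE 0.09, adjusted p = 0.0161, edgeR), a call lost in 3 of 6 fits without 1 library (without the third E2f1 replicate and without the first or the second mock replicate, at -0.30 to -0.28). Its log2 fold change against the negative pool was -0.31 (adjusted p = 0.115, edgeR). Against the negative pool, 0 members were called with the E2f1, Pparg and Stat6 pools by edgeR. Mxd4 and Mlxip with the E2f1 pool and Mxd1 with each of the other pools had an unadjusted p under 0.05, as had 1539, 2737 and 1713 of all genes, and DESeq2 also called 0 members.

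No difference of a member passed the test when the E2f1, Pparg and Stat6 pools were added to the Myc pool. Between the combined and the Myc knockdown, 0 of the 10 members were called by edgeR (0.0494% of all genes), and 0 members had an unadjusted p under 0.05. Mga had 82.2 to 84.1 CPM with the combined pool and 77.2 to 80.6 CPM with the Myc pool (log2 fold change 0.07, not called). The log2 fold changes were 0.05 for Myc (approximate 95% interval -0.29 to 0.38) and 0.03 for Mxd4 (-0.15 to 0.20). Of 14172 tested genes, 7 were called, all lower in the combined knockdown, with 427 genes at an unadjusted p under 0.05. Among the 7 were the other targets of the combined pool, Pparg (-1.20), Stat6 (-0.94) and E2f1 (-0.93). DESeq2 called 11 genes.

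The ratio of antagonists to Myc was 14.8 to 20.2 in the Myc knockdown and 15.1 to 15.4 in the combined knockdown, compared to 5.66 to 6.52 with the negative pool. The groups did not overlap. The geometric means were 2.68-fold and 2.49-fold above the negative pool. The denominator is Myc, the target of the pool, so the ratio is no separate test of the knockdown. The summed antagonists themselves had 43.5 to 48.9 CPM per kb in the Myc and 40.5 to 48.5 CPM per kb in the combined knockdown, which overlapped the 44.3 to 46.5 CPM per kb of the negative pool.

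Arrdc4, the target of the Mlx and Mlxip branch, rose with the Myc pool while Txnip did not pass the test. Arrdc4 had 59.0, 55.2 and 70.3 CPM in the Myc and 61.9, 58.5 and 75.0 CPM in the combined knockdown, compared to 37.8, 38.0 and 39.2 CPM with the negative pool. The log2 fold changes were 0.68 (SE 0.09, adjusted p = 8.85e-07, edgeR) and 0.76 (SE 0.09, adjusted p = 1.37e-07, edgeR), and 1.02 with the Myc pool against mock. Those of Txnip were 0.06 (approximate 95% interval -0.33 to 0.46) and -0.09 (-0.49 to 0.30). Pvt1 had log2 fold changes of -0.18 and -0.41 that were not called, at levels under 3 CPM.

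The 25 listed genes known to be activated by MYC, most of them for ribosome production and nucleotide synthesis, did not follow the level of Myc in all comparisons. After 24 h, 21 of them were lower and 3 higher in M1-like macrophages against M2-like macrophages, compared to 38.1% of all genes lower and 34.6% higher, and their median log2 fold change was -0.87. The largest decreases were those of Tfrc, the transferrin receptor (-2.85), and Apex1, a DNA repair enzyme (-2.54), and the largest increases those of the cyclin Ccnd2 (4.97) and of Ldha, lactate dehydrogenase (2.35). In the mock samples, 10 were higher and 4 lower in M1-like macrophages (30.9% and 29.8% of all genes), with a median of 0.06. Odc1 for polyamine synthesis (1.31) and Ccnd2 (1.05) increased most and Tfrc (-2.11) and Apex1 (-0.89) decreased most.

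In the Myc knockdown against the negative pool, 7 of the 25 were higher and 2 lower (13.9% and 15.6% of all genes), with a median of 0.11. Higher were Odc1 (0.58) and Srm (0.53), both for polyamine synthesis, and lower were Tfrc (-0.46) and Ldha (-0.24). Against mock, 10 were higher and 1 lower (19.8% and 18.9% of all genes), led by Odc1 (0.85) and the translation factor Eif4e (0.58), with Tfrc as the gene that fell (-0.92). In the combined knockdown against the negative pool, 4 were higher, among them Odc1 (0.58) and Rrs1 for ribosome assembly (0.41), and 2 lower, Tfrc (-0.56) and Ldha (-0.29), compared to 12.5% and 13.9% of all genes.

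**Figure D5:**
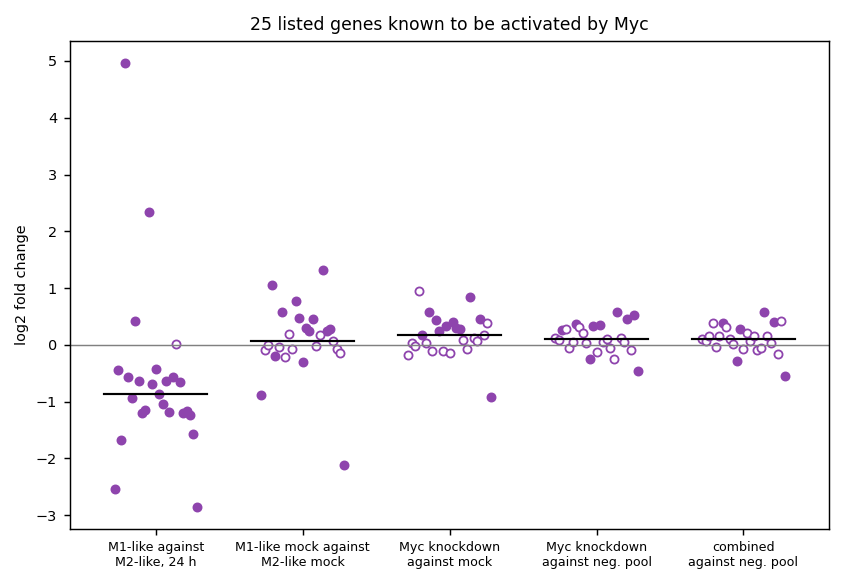
Log2 fold changes of 25 listed genes that MYC is known to activate, 1 point per gene, filled where the test was passed, with the median as a line. After 24 h of polarization 21 genes were lower in M1-like macrophages (median -0.87), while in the Myc knockdown against the negative pool 7 were higher and 2 lower (median 0.11).

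Of the 6 listed genes known to be repressed by MYC, the cell cycle inhibitor Cdkn1a rose in each of these comparisons, by 3.52 on the log2 scale after 24 h of M1-like against M2-like polarization, by 1.78 in the mock samples, and by 0.70 and 0.81 in the Myc and combined knockdown against the negative pool. Against mock it rose by 1.64 in the Myc knockdown, more than against the negative pool. The stress gene Ndrg1 rose after 24 h (2.84) but fell in both knockdowns against the negative pool (-0.95 and -0.80) and in the Myc knockdown against mock (-0.81). Gadd45a was lower in M1-like macrophages in both experiments (-2.23 and -2.05), and Ndrg2 was lower in the mock M1-like samples (-2.82), at levels near 1 CPM. Cdkn2b fell in the Myc knockdown against mock (-0.67) and in the combined knockdown against the negative pool (-0.85), also from low levels of 2.49 and 2.13 CPM. In counts, 4 were higher and 1 lower after 24 h (34.6% and 38.1% of all genes), 1 was higher and 4 lower in the mock samples (30.9% and 29.8%), and 1 was higher and 1 lower in the Myc knockdown against the negative pool (13.9% and 15.6%).

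Of the 6 corepressors of the MXD and MNT proteins, 4 were higher in M1-like macrophages after 24 h (34.6% of all genes), among them the deacetylase Hdac1 (1.17) and the scaffold Sin3b (0.70), and 2 lower (38.1% of all genes), among them the deacetylase Hdac2 (-0.76). With mock, Sin3b (0.35) and Sin3a (0.20) were higher (30.9% of all genes). In the Myc knockdown, none of the 6 was called by edgeR against the negative pool (29.6% of all genes), and Sin3b (0.18) was called against mock.

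Of the 10 MYC cofactors, 7 were higher and 2 lower in M1-like macrophages after 24 h (34.6% and 38.1% of all genes). The chromatin remodeller Ep400 (1.18) and Zbtb17 (0.87), the MYC partner in repression, increased most, and the acetyltransferase Kat2a (-0.90) and Wdr5 (-0.24) decreased. Among mock samples 5 were higher, led by Ruvbl2 (0.83) and Ep400 (0.41), and Kat5 was lower (-0.19), compared to 30.9% and 29.8% of all genes. In the Myc knockdown against the negative pool, 4 were higher and 0 lower (13.9% and 15.6% of all genes), led by Zbtb17 (0.49) and Ruvbl2 (0.39), and 3 were higher in the combined knockdown (12.5% of all genes, 0.46 and 0.38 for the same genes). Against mock, 4 were higher in the Myc knockdown (19.8% of all genes), led by Ruvbl2 (0.40) and Zbtb17 (0.36).

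Genes for the turnover of the MYC protein moved in both directions after 24 h (34.6% of all genes higher and 38.1% lower). There, the phosphatase subunit Ppp2r5a (1.04) led 3 increases, and the ubiquitin ligase subunits Skp2 (-1.38) and Fbxw7 (-0.75) led 4 decreases among 10 genes. In the mock samples (30.9% and 29.8% of all genes), the deubiquitinase Usp36 was higher (0.75) and 3 genes were lower, led by Fbxw7 (-0.56) and the deubiquitinase Usp28 (-0.52). In the Myc knockdown against the negative pool, 3 genes were lower (15.6% of all genes), led by Usp28 (-0.68) and Fbxw7 (-0.42). In the combined knockdown 2 were lower (13.9% of all genes), Usp28 (-0.69) and Fbxw7 (-0.54), and against mock 3 were lower with the Myc pool (18.9% of all genes), led by Usp28 (-0.85) and the ligase Huwe1 (-0.51).

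Of the 9 further subunits of the Mga complex PRC1.6, Rybp was higher (1.21) and 5 were lower in M1-like macrophages after 24 h (34.6% and 38.1% of all genes), led by Cbx3 (-1.43) and Pcgf6 (-0.97). Under mock treatment, L3mbtl2 (0.51) and Yaf2 (0.50) were higher and Rybp was lower (-0.29), compared to 30.9% and 29.8% of all genes. L3mbtl2 was also higher in the Myc and combined knockdowns against the negative pool (0.30 and 0.32) and in the Myc knockdown against mock (0.41), and Ring1 was higher in the Myc knockdown against the negative pool (0.38). The remaining network genes, Mxd3 and Mlxipl, stayed under 2 CPM in every sample. Mxd3 had 17 to 23 reads in the M1-like samples after 24 h and 1 to 10 in the M0 and M2-like samples, and Mlxipl had 24 to 37 reads in the M0 samples and 2 to 10 in the M1-like and M2-like samples. Each passed the filter only through the state in which it was highest, so no test is given. In the Myc and combined knockdowns against the negative pool 0 of Mycn, Mxd3 and Mlxipl passed the test by edgeR.

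Markers of other cells moved with some of these contrasts. The 4 proliferation markers summed to 15.9 to 20.95 CPM in the Myc knockdown and to 29.1 to 31.6 CPM with the negative pool, and 1 of 4 was called lower (15.6% of all genes). The 4 mesothelial markers summed to 2.66 to 3.31 CPM and to 8.79 to 12.5 CPM in the same groups, with 2 of 3 tested genes lower (15.6% of all genes). In the mock samples they summed to 0.109 to 0.406 CPM in M1-like compared to 5.31 to 13.04 CPM in M2-like macrophages. The M1-like values there are near 0, so they are a description and no test is given. The eosinophil markers, of which 3 of 4 stayed under 1 CPM in every sample, summed to 0.737 to 1.28 CPM in mock M1-like and to 18.9 to 19.8 CPM in mock M2-like samples.

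The macrophage markers summed to 11460 to 11680 CPM in the Myc knockdown and to 12200 to 13190 CPM with the negative pool, with 4 of 6 lower (15.6% of all genes). They summed to 6162 to 7160 CPM in mock M1-like compared to 14550 to 15900 CPM in mock M2-like samples, with 5 of 6 lower (29.8% of all genes). The B cell markers summed to 0.979 to 2.36 CPM in mock M1-like and 6.55 to 11.6 CPM in mock M2-like samples, and the mast cell markers to 0.174 to 0.326 and 1.67 to 3.07 CPM. These M1-like levels are low, so the values are a description and no test is given. In the Myc knockdown against the negative pool, no B cell or mast cell marker was called by edgeR (29.6% of all genes). After 24 h, 4 of 6 macrophage markers were lower and 2 higher in M1-like samples compared to M2-like samples (38.1% and 34.6% of all genes). The neutrophil markers summed to 9.37 to 14.0 CPM in M1-like and 5.62 to 6.82 CPM in M2-like samples. The eosinophil markers summed to 0.229 to 0.817 and 13.9 to 18.9 CPM. In each of these 2 lists, 3 of 4 markers stayed under 1 CPM in every sample, so no test is given. Every mesothelial marker stayed under 1 CPM after 24 h. The part of these shifts in the results of the members was not tested.

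The genes whose mean log2 CPM over the 12 reprogramming conditions was most like that of Myc were Alcam (Pearson r = 0.991), Mrtfb (0.986), Zfp385a (0.981), Adgrg6 (0.981) and Cavin1 (0.980), among 10131 genes considered. For Mxd1 they were Tmem192 (0.965), P4ha2 (0.953) and Kctd6 (0.950), and for Mycl, at its low levels, Ifi207 (0.929), Rala (0.923) and Efemp2 (0.915). Within the network, Myc had r = 0.91 with Mxd4 and -0.95 with Mlx over the same 12 conditions. These values describe likeness over conditions that share transfection and polarization, and no test was made of them.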

How the data were processed

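RNA-seq counts of 54 libraries were used. The values are raw counts per Ensembl gene as the authors deposited them, made with Trimmomatic (trimming), TopHat2 (alignment to GRCm38/mm10) and featureCounts (counting), without normalization. Reads were single-end of 50 nt in the polarization and paired-end of 150 nt in the reprogramming experiment. Technical replicates were summed. Genes were filtered with filterByExpr (minimum count 10, minimum total count 15) and compared with edgeR 4.0.16 (R 4.3.3), TMM and the quasi-likelihood test (two-sided), in 1 model per experiment, since the experiments were normalized separately. The study names DESeq2, which was an alternative here (1.42.0). Standard errors were taken as the absolute log2 fold change divided by the square root of F, and approximate 95% intervals are 1.96 SE. Counts were simulated for M1-like and M2-like macrophages after 24 h (15886 genes) and for the Myc knockdown against the negative pool (13896 genes). In each, edgeR recovered 200 of 200 genes changed by 2 on the log2 scale. It also called 11 and 12 unchanged genes. Smaller changes and changes in genes with low counts were not simulated, so their recovery is not shown. Symbols, exons and coordinates are from GENCODE M21, promoters from RefSeq. Ratios were compared with exact permutation tests (SciPy 1.17.1).

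The members and all gene lists were chosen with earlier results of these data known. Named were all members, Mycn, Mxd3, Mlxipl, Txnip, Arrdc4 and Pvt1, and of each other list the 2 largest increases and decreases among called genes, and for likeness the 5 genes most like Myc and 3 each for Mxd1 and Mycl with a mean log2 CPM of at least 2. Some results that this rule covers are not reported here. Samples of the polarization experiment share mice across the states, as the labels state (median correlation of deviations 0.25 over 9 pairs of the same mouse and -0.14 over 18 other pairs). The reported fits had no term for mouse, so their p-values and SE are those of unpaired comparisons. Fits with a block by mouse are given below as an alternative.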

Additional observations from a re-analysis of the deposited data

How the results depend on the processing

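Over 1610 refits of single members under another setting, 36 calls were gained, 8 were lost and none turned direction, and over 1680 refits without 1 library, 8 were gained and 72 lost. With a change of 1 or more on the log2 scale, up or down, as a further condition, fewer members were called. The counts were 5 for M1-like against M0 after 24 h, 1 for M2-like against M0 and 5 for M1-like against M2-like. For the reprogramming experiment they were 2 for untransfected M1-like against M0, 0 for M2-like against M0 and 2 for M1-like against M2-like, and 3, 0 and 3 in the same order with mock. They were 1 and 0 for mock against untransfected M0 and M2-like macrophages, 0 for the negative pool against mock, 2 each for the Myc and combined knockdowns, 0 each for the E2f1, Pparg and Stat6 knockdowns against mock, and 1 for the Myc knockdown against the mean of those 3.

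With technical replicates as separate samples, 7 members were called in M2-like against M0 macrophages after 24 h, a fit in which mice are counted more than once. For the Myc knockdown against the negative pool, 5 members were called with at least 10 counts in every sample, with the replicate block or with only these groups fitted. For the E2f1 knockdown against the negative pool, 1 member was called without a filter, with the block or with only these groups fitted. With only the compared groups fitted, 0 were called for mock against untransfected M2-like macrophages, and with mock and negative pool as a joint reference 1 was called in the Stat6 knockdown. In the reprogramming experiment the replicate numbers carry no stated pairing (median correlation of deviations 0.183 and 131 of 198 same-numbered pairs over 0.1), and the block is given for that reason only here. In the polarization experiment the block by mouse left 10, 4 and 9 members called.

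Without 1 library, 0 to 1 members were called in untransfected M2-like against M0 macrophages, 2 to 6 in mock against untransfected M0, 0 to 1 in mock against untransfected M2-like macrophages, 3 to 5 in the Myc knockdown against the mean of the other single knockdowns, and 0 to 1 for the difference between mock and untransfected polarization. With Mxd1 alone over Myc, the log2 differences of the ratio were 8.04 and 9.45 for M1-like macrophages after 24 h against M0 and M2-like, 3.07 and 3.27 with mock, -0.20 for mock M2-like against M0, 1.74 and 1.79 for the Myc and combined knockdowns against mock and 1.6 for the combined knockdown against the negative pool. The other 22 ratio alternatives and the 60 without 1 sample moved by less than 1 SD.

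Over all genes, the number called moved by more than 1.5 times in some fits. For M2-like against M0 after 24 h it was 7198 with technical replicates as separate samples (4499 otherwise). For mock M2-like against mock M0 it was 900 with the block and 111 with only these groups fitted (543 otherwise). Without a filter it was 42 and 387 for mock against untransfected M1-like and M2-like macrophages (0 and 251 otherwise), 28 for the combined against the Myc knockdown (7 otherwise, 11 with DESeq2) and 306 for the difference between mock and untransfected polarization (160 otherwise). For the E2f1 knockdown against the negative pool it was 237 without a filter, 236 with the block, 342 with only these groups fitted and 209 with DESeq2 (129 otherwise), and for the Stat6 knockdown 380 with the block and 362 with DESeq2 (214 otherwise). Against the joint reference it was 650 and 737 for the E2f1 and Stat6 knockdowns (1648 and 1624 against mock). The causes were not tested. Low counts limit Mycl in the reprogramming experiment, where it had 7 to 30 reads in the mock M1-like, mock M2-like, Myc knockdown and negative pool samples.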
